A study of Canis lupus familiaris with 7 samples.

Results

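The 9 genes described here encode enzymes that make heme or convert it to heme A, leaving aside *ALAS2*, the erythroid form of the first enzyme. They are *ALAS1*, *ALAD*, *UROS*, *UROD*, *CPOX*, *PPOX*, *FECH*, *COX10* and *COX15*, and all 9 were found once each, by symbol, among the 24580 genes of the table. They were chosen by their place in the pathway, with earlier results of these data known. All but *PPOX* and *COX15* stand on a heme gene list that the study drew from these same samples, so a direction they share is not independent evidence. RNAseq had been performed on 4 samples of grossly non-malignant bone (N1, N3, N8 and N9, called non-tumor) and 3 samples of osteosarcoma (T1, T3 and T10, called OSA tumor) from pet dogs, taken at amputation or after euthanasia. The tumors were spontaneous, the non-tumor tissue was a piece of bone next to a tumor, and age, breed, sex and treatment of the dogs were not used here. The labels call the bone matched to the tumor but do not say which of the 7 samples share a dog. Levels are FPKM (fragment numbers corrected for transcript length and library size), a unit that allows genes of different length to be set side by side.

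Heme is made in steps that begin and end in the mitochondrion and pass through the cytosol. *ALAS1* encodes the housekeeping form of 5-aminolevulinate synthase, which commits glycine and succinyl-CoA to the pathway, and *ALAD* encodes the enzyme that joins aminolevulinate into porphobilinogen. *UROS* and *UROD* encode uroporphyrinogen III synthase and decarboxylase, *CPOX* and *PPOX* encode the oxidases that yield protoporphyrin, and *FECH* encodes ferrochelatase, which inserts the iron. *COX10* and *COX15* encode the farnesyltransferase and the monooxygenase that turn heme into heme A for cytochrome c oxidase. Every respiring cell needs the pathway, but the erythroid precursors of the marrow run it at a far higher rate for hemoglobin.

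The bulk tissue pieces differed widely in marrow and muscle genes. *AHSP*, which encodes the chaperone of alpha hemoglobin, reached 3202 FPKM in N8 and 1915 in N3, with 106 in N9 and 1.31 in N1, while T10 had 48.0 FPKM, T3 2.84 and T1 0.560. *KLF1*, an erythroid transcription factor, had 41.4 FPKM in N8, 30.3 in N3, 2.51 in N9 and 0.0340 in N1, and 0.450 FPKM in T10, 0.110 in T3 and 0.0363 in T1. *SLC4A1*, the anion exchanger of the red cell membrane, was at 174 FPKM in N8, 140 in N3, 12.2 in N9 and 0.149 in N1, was listed at 0 in T1 and T3 and was at 0.162 FPKM in T10. N3 and N8 were thus rich in erythroid RNA, N9 held less, and N1 lay among the tumor samples. *ACTA1*, the actin of skeletal muscle, gave another order, with 13913 FPKM in N8, 11146 in N9, 255 in N3 and 20.0 in N1, and between 0.497 and 2.41 FPKM in the OSA tumor samples. Over the whole marker lists, the 11 matched erythroid genes (of 12 listed) summed to between 6.93 and 4366 FPKM in non-tumor and between 3.72 and 55.3 FPKM in tumor samples, and the 9 muscle genes to between 73.1 and 74739 against between 4.20 and 11.1 FPKM. The 4 matched granulocyte genes (of 7) were also highest in N3 and N8, but with N3 first, at sums of 24120.5 and 19823 FPKM. Their lowest non-tumor sum was 327 FPKM in N1. Among the 6 matched osteoblast genes (of 7), which mark the labelled tissue, the non-tumor sums ran from 160 FPKM in N8 and 488 in N9 to 7418 in N1, and the tumor sums from 1924 FPKM in T3 to 12460.5 in T1. The sums of N8, N9 and N3 (1671 FPKM) were thus below that of every tumor sample and that of N1 within the tumor range, although N3 was above T3 in each of these genes except *SPP1*. In such bulk tissue, fewer cells of a type and less RNA per cell cannot be told apart. The number of fragments behind 1 FPKM, relative to N1, ran from 0.546 in N8 to 1.44 in T10. The FPKM of all genes summed to 539648 in N1, 688747 in N3, 1310200 in N9 and 1752340 in N8. In tumor samples they summed to 582283 in T10, 902351 in T3 and 1119450 in T1.

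The comparison of OSA tumor with non-tumor tissue asks which genes the tumor expresses at another level than the bone beside it. *ALAS1*, *ALAD*, *UROS*, *PPOX* and *FECH* were lower in OSA tumor at a fold change of 2 or more with an unadjusted p under 0.05, and *UROD*, *CPOX*, *COX10* and *COX15* did not pass. All 9 log2 fold changes were negative, as were those of 51.4% of all tested genes, and they ran from -2.56 for *FECH* to -0.45 for *COX15*, with a median of -1.54 where the median of all 13507 genes tested was -0.02. The 5 lower enzymes compare with 6.86% of all tested genes past the threshold in either direction, with 3.58% lower and 3.28% higher in OSA tumor. An adjusted p under 0.05 was reached by 0 of the 9 enzymes and by 0 of all tested genes in limma's moderated test with Benjamini-Hochberg adjustment, which gave 927 genes an unadjusted p under 0.05. The adjusted p of the 9 enzymes lay between 0.693 and 0.851. For 7 enzymes the lowest non-tumor level as deposited was that of N1, which was so for 31.2% of all tested genes. With the FPKM rescaled to the same sum, N1 stayed the lowest non-tumor sample for *ALAD*, *CPOX* and *FECH*. N9 was then lower than N1 for *ALAS1*, *UROS*, *UROD* and *PPOX*. The number of enzymes past the threshold was 7 without N1, 1 without N8 and 1 without T10, and it was 0 with the mean level of *AHSP*, *KLF1* and *SLC4A1* as a covariate. All genes past the threshold were lower in tumor in 52.2% of cases as deposited and in 64.5% after the FPKM of each sample were rescaled to the same sum, which moved the median of all tested genes to 0.12. The 9 enzymes stayed negative under that rescaling, under median ratio scaling and under quantile normalization.

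**Figure D1:**
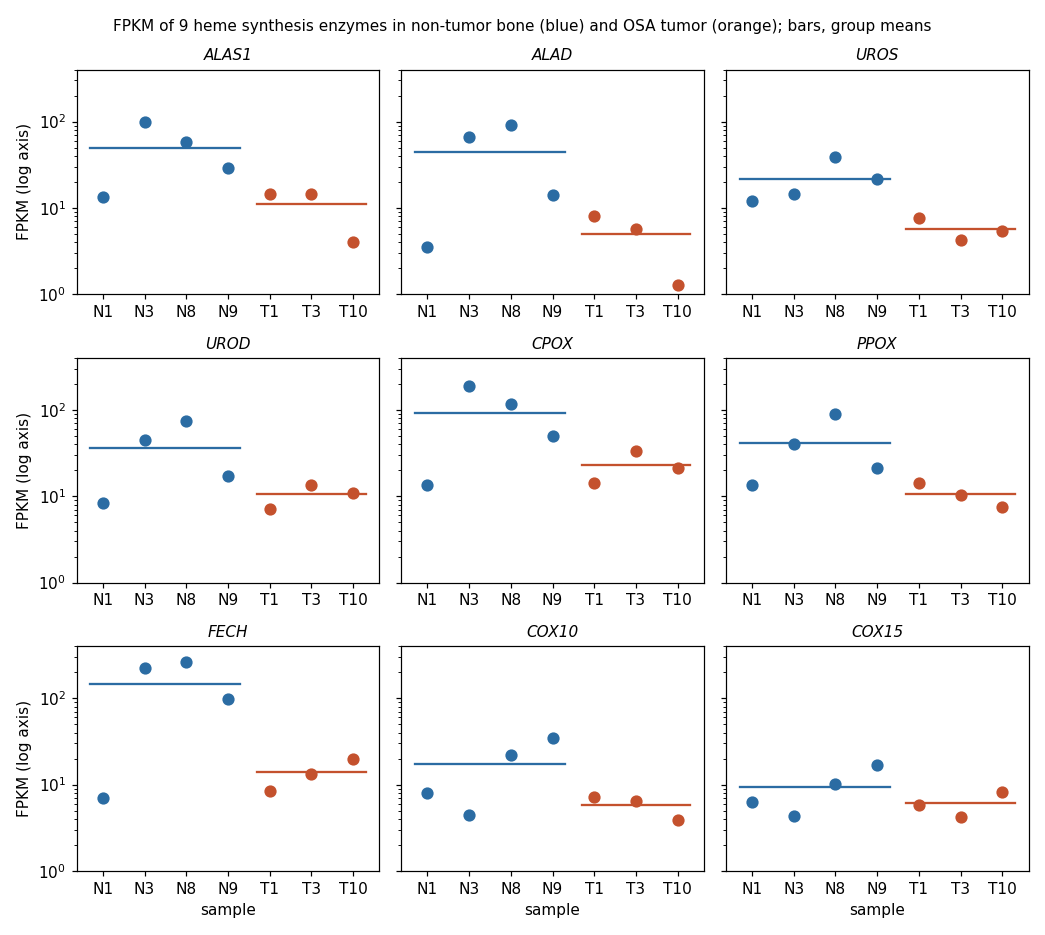
FPKM (log axis) of the 9 enzymes in each of the 7 samples, with non-tumor samples in blue, OSA tumor samples in orange and horizontal bars at the group means. For 7 enzymes the lowest non-tumor level as deposited was in N1, and N9 was the highest in *COX10* and *COX15*. Of those 7, *ALAD*, *CPOX* and *FECH* stayed lowest in N1 with the FPKM rescaled to the same sum.

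The first enzyme, *ALAS1* (ENSCAFG00000009881, chromosome 20 from 37550865 to 37566438, positions here and for the other genes being those of CanFam3.1), had levels of 99.5 FPKM in N3, 57.9 in N8, 29.3 in N9 and 13.4 in N1. In OSA tumor it had 14.5 FPKM in both T1 and T3 and 3.97 in T10. N3, N8 and N9 were above all tumor samples, whereas N1 was below T1 and T3, so the groups overlapped. The group means were 50.0 ± 37.7 FPKM (SD, n = 4) and 10.99 ± 6.08 FPKM (SD, n = 3). Limma put the difference at -1.92 ± 0.73 (SE) on the log2 scale with an unadjusted p of 0.0274, and the exact permutation p was 0.171. *ALAS1* fell short of the threshold without T10 (-1.37), N3 (-1.48) or N8 (-1.73).

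*ALAD* (ENSCAFG00000003246, chromosome 11 from 67741492 to 67746324), the next enzyme, spanned a wider range than *ALAS1* within either group. Its non-tumor levels were 67.0 FPKM (N3), 92.0 (N8), 14.2 (N9) and 3.56 (N1), and its tumor levels 8.05 FPKM (T1), 5.71 (T3) and 1.29 (T10). N1 was lower than T1 and T3, and T10 held the lowest level of any enzyme in any sample. The log2 fold change of -2.31 had a 95% interval from -4.62 to -0.00393 (unadjusted p = 0.0497 from limma, exact permutation p = 0.171). Of the 7 fits that each left out 1 sample, *ALAD* passed without N1 (-3.14) and in none of the other 6, where it ran from -2.71 without T1 to -1.69 without N8.

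*UROS* (ENSCAFG00000012866, chromosome 28 from 34950591 to 34983571) was the enzyme whose groups did not overlap. It was at 38.4 FPKM in N8, 21.5 in N9, 14.6 in N3 and 12.1 in N1, and at 7.54 FPKM in T1, 5.45 in T10 and 4.28 in T3. The lowest non-tumor level, in N1, was thus above the highest tumor level, in T1. Among all tested genes the groups did not overlap in 5.85%, with tumor the lower group in 2.81%. The mean of 21.6 ± 11.9 FPKM (SD, n = 4) in non-tumor was 3.76 times the mean of 5.76 ± 1.65 FPKM (SD, n = 3) in OSA tumor. The difference by limma was -1.64 ± 0.51 (SE) on the log2 scale, with an unadjusted p of 0.0105, and the two-sided exact permutation test gave the smallest p that 35 splits allow, 0.0571. *UROS* passed in all 7 fits that left out a sample, between -1.86 and -1.33. It did not pass after the FPKM of each sample were rescaled to the same sum, at -1.46 with an unadjusted p of 0.0525 by limma.

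*UROD* (ENSCAFG00000004646) was assigned a stretch of chromosome 15 (15110474 to 15317085) shared by 3 listed genes, of which the others stayed under 1 FPKM in every sample. It was at 75.4 FPKM in N8, 45.3 in N3, 17.1 in N9 and 8.30 in N1, against 13.6 FPKM in T3, 10.8 in T10 and 7.19 in T1. N1 lay between T1 and T10, and the other 3 non-tumor samples were above every tumor sample. At -1.31 ± 0.72 (SE) on the log2 scale, *UROD* did not pass (unadjusted p = 0.102 from limma, exact permutation p = 0.229). It passed without N1, at -1.83, and was smallest in size without N8, at -0.82.

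*CPOX* (ENSCAFG00000009182, chromosome 33 from 5445856 to 5459137) had the highest mean of the 9 enzymes in OSA tumor. Its levels were 33.7 FPKM in T3, 21.5 in T10 and 14.1 in T1, and 189 FPKM in N3, 118 in N8, 49.6 in N9 and 13.4 in N1. N1 was the lowest of all 7 samples, and N3 was the highest. The difference of -1.48 ± 0.84 (SE) on the log2 scale did not pass (unadjusted p = 0.109 from limma, exact permutation p = 0.286). It passed without N1, at -2.20, and was smallest in size without N3, at -0.96.

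*PPOX* (ENSCAFG00000012811) has its interval on chromosome 38 (21282553 to 21311011), which also holds *ADAMTS4* and *B4GALT3*. Its non-tumor levels were 89.7 FPKM in N8, 40.3 in N3, 21.2 in N9 and 13.6 in N1, and its tumor levels 14.4 FPKM (T1), 10.3 (T3) and 7.54 (T10). A single pair of samples broke the separation of the groups, with T1 just above N1. *B4GALT3*, between 2.58 and 7.37 FPKM in the 7 samples, had no such peak in N8. The means of *PPOX* were 41.2 ± 34.2 FPKM (SD, n = 4) and 10.7 ± 3.44 FPKM (SD, n = 3). By limma the groups differed by -1.54 ± 0.65 (SE) on the log2 scale with an unadjusted p of 0.0410, and the exact permutation p was 0.114. *PPOX* passed without N1 (-1.94) and without N9 (-1.73), and it missed the threshold without any of the other 5 samples, with values from -1.75 without T1 to -1.06 without N8.

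*FECH* (ENSCAFG00000000126, chromosome 1 from 18352205 to 18382881), the last step to heme, had the highest non-tumor mean of the 9 enzymes and the lowest log2 fold change. Levels of 226 FPKM in N3, 263 in N8 and 97.5 in N9 stood against 6.96 FPKM in N1, a range of 37.8 times within non-tumor tissue. The tumor samples, with 19.9 FPKM in T10, 13.1 in T3 and 8.46 in T1, were all above N1. Limma put the difference at -2.56 ± 1.11 (SE) on the log2 scale with an unadjusted p of 0.0449, and the exact permutation p was 0.229. *FECH* passed without N1 (-3.68) and in none of the 6 fits that left out another sample, which ran from -2.84 without T10 to -1.998 without N8.

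The enzymes of heme A had another order of samples. *COX10* (ENSCAFG00000017899), in a stretch of chromosome 5 (37853613 to 37982488) shared by 2 listed genes, was at 34.7 FPKM in N9, 22.0 in N8, 8.01 in N1 and 4.40 in N3. Its tumor levels were 7.25 FPKM (T1), 6.47 (T3) and 3.85 (T10), so N3 lay below T1 and T3. The difference of -1.08 ± 0.68 (SE) on the log2 scale did not pass (unadjusted p = 0.147 from limma, exact permutation p = 0.229). It passed without N3, at -1.54, and was smallest in size without N9, at -0.64.

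*COX15* (ENSCAFG00000009515) shares its interval on chromosome 28 (12610498 to 12650904) with *CUTC*. It was at 17.0 FPKM in N9, 10.2 in N8, 6.31 in N1 and 4.30 in N3, against 8.25 FPKM in T10, 5.80 in T1 and 4.19 in T3. N8 and N9 exceeded all tumor samples, and the other non-tumor samples lay within the tumor range. The log2 fold change was -0.45 with a 95% interval from -1.67 to 0.77 (unadjusted p = 0.427 from limma, exact permutation p = 0.400), and the gene passed in 0 of the 7 fits without a sample. *CUTC*, a copper homeostasis gene, had its highest levels in N9 (37.3 FPKM) and N8 (24.7 FPKM) as well.

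**Figure D2:**
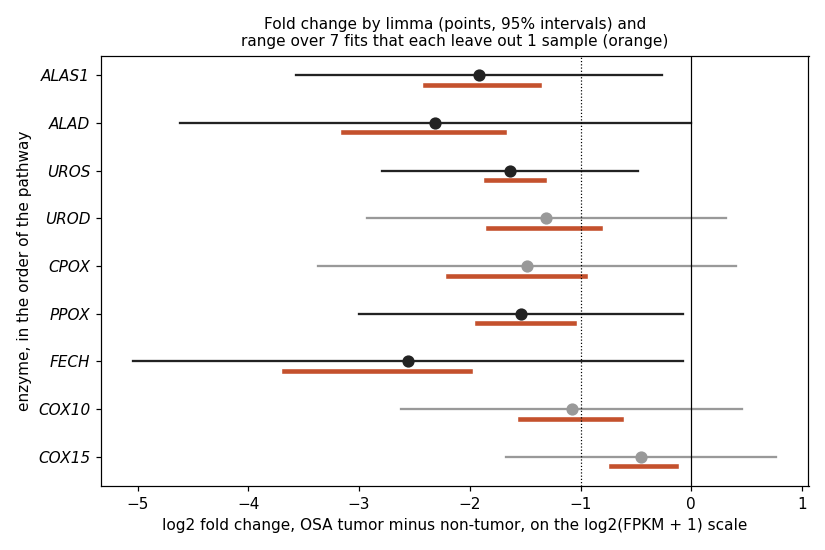
Log2 fold change of OSA tumor against non-tumor for each enzyme (points, black where the threshold was passed and grey where not) with the 95% interval of the limma fit, and in orange the range over the 7 fits that each left out 1 sample; the dotted line is at -1. *FECH* lay at -2.56 and *COX15* at -0.45, and the orange ranges of all 9 enzymes stayed below 0.

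By mean level in non-tumor tissue the enzymes ran from *FECH* (149 FPKM) through *CPOX* (92.4), *ALAS1* (50.0), *ALAD* (44.2), *PPOX* (41.2), *UROD* (36.5), *UROS* (21.6) and *COX10* (17.3) to *COX15* (9.46 FPKM). In OSA tumor the order was *CPOX* (23.1 FPKM), *FECH* (13.8), *ALAS1* (10.99), *PPOX* (10.7), *UROD* (10.5), *COX15* (6.08), *COX10* (5.86), *UROS* (5.76) and *ALAD* (5.02 FPKM). In the first order no neighbours differed by more than the larger SD of the pair. The same held for the second order except between *UROD* and *COX15*, where the gap of 4.46 FPKM exceeded the SD of 3.21 FPKM.

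Each enzyme was then set, sample by sample, against the erythroid genes and *ACTA1*. The measure was the number of the 21 pairs of samples that the enzyme and the reference gene put in the same order, a description without a test. Pairs tied in either gene counted as not the same. No gene could thus reach all 21 with *SLC4A1*, which was at 0 in both T1 and T3. Over all tested genes the median was 10 pairs for *AHSP*, *KLF1* and *SLC4A1* and 11 for *ACTA1*. *FECH* matched *KLF1* in 21 of 21 pairs, which 0.0444% of tested genes did, *AHSP* in 20 and *SLC4A1* in 18. One of the 21 pairs with *KLF1*, that of N1 and T1, is a tie apart from scaling, since *KLF1* in T1 was 0.9995 times its value in N1 once corrected for depth, and with quantile normalization *FECH* matched *KLF1* in 90.5% of pairs. *UROD* matched *AHSP* in 20, *KLF1* in 19 and *SLC4A1* in 18 pairs. For *CPOX* these counts were 18, 19 and 16. The 3 enzymes matched *ACTA1* in fewer pairs, 14 for *FECH*, 16 for *UROD* and 14 for *CPOX*. *ALAS2*, the erythroid isoenzyme, matched *AHSP* in 19 and *ACTA1* in 15 pairs.

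As deposited, *UROS* and *PPOX* matched *ACTA1* in 20 and 19 of 21 pairs. *UROS* matched *AHSP* in 16, *KLF1* in 15 and *SLC4A1* in 17 pairs, and *PPOX* matched them in 15, 16 and 16. For *ACTA1*, 0.637% of tested genes had at least as many pairs as *UROS*, and 1.94% at least as many as *PPOX*. This order of the reference genes did not hold with the FPKM rescaled to the same sum. *UROS* then matched *ACTA1* and *SLC4A1* alike in 71.4% of pairs, and *PPOX* matched *ACTA1* and *AHSP* alike in 76.2%, *KLF1* in 81.0% and *SLC4A1* in 85.7%. *ALAS1* and *ALAD* were between these groups, with 16 pairs each for *AHSP* and 16 and 18 pairs for *ACTA1*. *COX10* matched the erythroid genes in 10 to 12 pairs, close to the median of all tested genes, and *ACTA1* in 17. Its share with *ACTA1* fell from 81.0% of pairs to 61.9% with the FPKM rescaled to the same sum. *COX15* matched *AHSP* in 14, *KLF1* in 13, *SLC4A1* in 15 and *ACTA1* in 14 pairs. These counts pool both groups, and both reference genes had their highest levels in non-tumor samples, so a gene lower in tumor gains pairs with either.

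**Figure D3:**
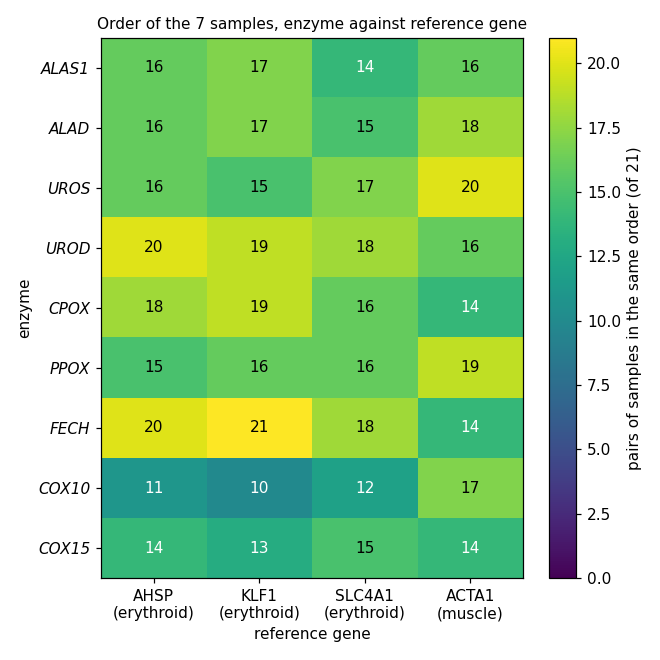
Number of the 21 pairs of samples that an enzyme (rows) and a reference gene (columns) put in the same order, with the colour scale from 0 to 21. *FECH* reached 21 pairs with *KLF1*, *UROS* 20 with *ACTA1*, and *COX10* 10 with *KLF1*.

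Among the 4 non-tumor samples, the orders of *AHSP* and *ACTA1* differ in the pair of N3 and N9 alone. The counts of an enzyme with these genes can thus differ only through that pair, and the share of all tested genes was not counted. Within the 4 non-tumor samples as deposited, *ALAD*, *UROD*, *PPOX* and *FECH* had the same order as *AHSP* in 6 of 6 pairs, *ALAS1*, *UROS* and *CPOX* in 5 and *COX10* and *COX15* in 3. *UROS* had the order of *ACTA1* in 6 of 6 pairs there, *ALAD*, *UROD*, *PPOX* and *FECH* in 5, and the other 4 enzymes in 4. The summed FPKM of these samples also rose in the order of *UROS*, from N1 through N3 and N9 to N8. With the FPKM rescaled to the same sum, *UROS* lost the order of *ACTA1*, being highest in N1 and lowest in N9. *UROD* and *PPOX*, then lower in N9 than in N1, lost the order of *AHSP*. Within the 3 tumor samples *FECH* followed *AHSP* in 3 of 3 pairs, both being lowest in T1 and highest in T10. As deposited, *ALAD*, *PPOX* and *COX10* had the reverse order, in 0 of 3 pairs. Each was lowest in T10, the tumor sample with the most *AHSP* and the lowest summed FPKM. With the FPKM rescaled to the same sum, *ALAD* stayed lowest in T10, while *PPOX* and *COX10* did not. *ALAS2*, like *AHSP*, was highest among the tumor samples in T10, at 20.97 FPKM against 2.69 in T1 and 4.48 in T3. *ALAS1*, at 3.97 FPKM, was lowest there.

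N3 and N9 set erythroid and muscle genes apart, a pair picked out after the values were seen. It is the pair behind the differing non-tumor counts above, so it is not a separate comparison. *AHSP* was 18.1 times higher in N3 than in N9, and *ACTA1* was 43.8 times higher in N9 than in N3. Across 13089 tested genes with a level above 0 in both, the median ratio of N3 to N9 was 0.958, and 48.2% of the genes were higher in N3. Of the enzymes, 6 were higher in N3, namely *ALAD* (4.73 times), *CPOX* (3.81), *ALAS1* (3.40), *UROD* (2.65), *FECH* (2.32) and *PPOX* (1.90). The other 3 were higher in N9, *COX10* by 7.88 times, *COX15* by 3.95 times and *UROS* by 1.47 times. *COX10* and *COX15* stayed higher in N9 under each of the 3 other scalings tried, whereas *UROS* turned with the FPKM rescaled to the same sum, to 1.29 times higher in N3, an alternative chosen after the data were seen. The 4 matched granulocyte genes were higher in N3 as well (24120.5 FPKM in sum against 830 in N9), and the part of either cell type in the enzymes' levels was not tested. These are single samples, so the ratios have no replicate check.

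**Figure D4:**
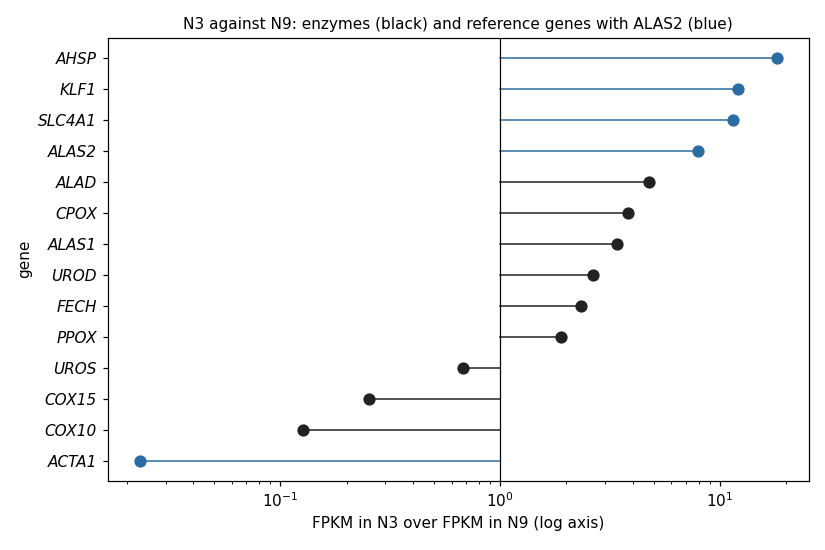
Ratio of the FPKM in N3 to the FPKM in N9 (log axis) for the 9 enzymes (black) and for *AHSP*, *KLF1*, *SLC4A1*, *ALAS2* and *ACTA1* (blue); the line at 1 marks equal levels. The enzymes from *ALAD* to *PPOX* lay on the side of the erythroid genes, and *UROS*, *COX15* and *COX10* on the side of *ACTA1*, from which *UROS* moved to the other side, at 1.29, with the FPKM rescaled to the same sum.

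With the mean log2 level of *AHSP*, *KLF1* and *SLC4A1* as a covariate beside the group, the fitted group differences were 0.012 for *FECH* (standard error 0.69), 0.17 for *UROD* (0.63) and 0.27 for *CPOX* (0.70) on the log2 scale. They were -0.33 for *ALAD* (standard error 0.93), -0.47 for *PPOX* (0.71) and -0.85 for *ALAS1* (0.84). *UROS* had -1.18 (standard error 0.68, 95% interval from -2.72 to 0.35), *COX10* -1.14 (0.93) and *COX15* -0.45 (0.75), where the values of *COX10* and *COX15* without the covariate were -1.08 and -0.45. Of the 9 enzymes, 0 passed the threshold in this limma fit, where 204 genes did. The covariate ran from 0.49 in N1 to 8.17 in N8 in non-tumor samples and from 0.23 in T1 to 2.12 in T10 in tumor samples, so it differed between the groups that it was fitted beside. With *ACTA1* as the covariate, added after the data were seen, the 9 differences ran from -0.92 (*ALAS1*) to 0.92 (*COX10*), with standard errors of 0.81 to 1.61.

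The enzymes also differed in how alike they were among themselves. Among the 7 enzymes that lead to heme, the 21 comparisons of one with another had a median of 17 and at least 13 sample pairs in the same order. Against *COX10* or *COX15* the same enzymes had a median of 12 pairs and at most 16. *ALAD* and *PPOX* were the most alike, with 20 of 21 pairs, and *ALAS1* and *COX15* the least, with 9.

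The tested genes whose levels lay nearest to each enzyme were found by the root mean square difference of the log2(FPKM + 1) values, each centred on its mean over the 7 samples. For *UROD* the nearest of 11842 named genes was *HMOX1*, which encodes the inducible heme oxygenase that breaks heme down, at a difference of 0.28. *HMOX1* was at 395 FPKM in N8, 313 in N3, 92.4 in N9 and 43.8 in N1, and at 122 FPKM in T3, 68.2 in T10 and 59.3 in T1. For *FECH* they were *REEP6* (0.35) and *EPB41* (0.44), which encodes a protein of the red cell skeleton, and for *ALAD* they were *TMCC2* (0.39) and the carbonic anhydrase *CA2* (0.41). *ALAS1* lay nearest to *ICAM2* (0.36) and *ACSL5* (0.41), *CPOX* to *CELF2* (0.31) and *LGALS9* (0.33), and *UROS* to *PKIG* (0.28) and *CYB5D2* (0.29). *PPOX* lay nearest to *SNORD97* (0.17) and *AGT* (0.26), *COX10* to *ACSBG1* (0.17) and *TANGO2* (0.19), and *COX15* to *PEBP1* (0.11) and *PDAP1* (0.14). The second neighbour of *UROD* was *CXorf64* (0.31). A small difference is easier to reach for an enzyme that varies little, such as *COX15*.

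Of the genes that carry, regulate or break down heme and its precursors, 19 of 22 listed were matched and tested. In OSA tumor 2 of the 19 were lower past the threshold and 0 higher, where 3.58% of all tested genes were lower, and the median log2 fold change was -0.68. *SLC25A37*, which encodes mitoferrin, the importer of iron into the mitochondria of erythroid cells, was at 88.4 FPKM in N8, 77.0 in N3, 17.1 in N9 and 11.97 in N1, and at 13.2 FPKM in T1, 5.08 in T10 and 1.38 in T3. Its difference of -2.60 ± 0.86 (SE) on the log2 scale passed with an unadjusted p of 0.0139 by limma, also in 6 of the 7 fits that left out a sample, and missed the threshold without T3 (-1.94). *SLC48A1*, a heme transporter of the lysosome, was lower at -1.64, and of those 7 fits it passed in the one without N1 (-2.19), with the others between -1.85 without T1 and -1.27 without T10. *ALAS2*, with 254 FPKM in N8, 118 in N3, 14.8 in N9 and 4.61 in N1, overlapped the tumor samples and did not pass, at -2.41 ± 1.26 (SE) on the log2 scale.

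On the side of breakdown, *HMOX1* was at -0.92 (SE 0.80) on the log2 scale, OSA tumor against non-tumor, and the biliverdin reductases *BLVRA* and *BLVRB* had -0.32 (0.57) and -1.08 (0.92). These 3 genes did not pass. *BLVRB* ranged from 10.9 FPKM in N1 to 255 in N3 within non-tumor tissue, and N1 was its lowest sample, as it was for *CPOX*, *FECH* and *HMOX1*. *NFE2L1*, a transcription factor of the stress response, was at 306 FPKM in N9, 153 in N8, 29.6 in N1 and 21.2 in N3, the same order of non-tumor samples as in *COX10* and *COX15*. At -1.62 (SE 0.94) on the log2 scale it did not pass.

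Beside *COX10* and *COX15*, 13 of 17 listed genes for the assembly of cytochrome c oxidase were matched and tested, with 1 lower and 0 higher in OSA tumor and a median log2 fold change of -0.40. A single gene of 13 is near the 6.86% of all tested genes past the threshold in either direction, and 3.58% of all tested genes were lower past it. The lower one, *COA5*, was at 87.1 FPKM in N9, 74.1 in N8, 36.0 in N3 and 28.2 in N1, and at 26.0 FPKM in T3, 23.1 in T10 and 12.6 in T1, so the groups did not overlap, with tumor lower, as in 2.81% of all tested genes. It lies in an interval shared by 3 listed genes. Its log2 fold change of -1.32 passed the threshold in 3 of the 7 fits that left out a sample, and not without N8 (-1.14), N9 (-1.06), T1 (-1.02) or T10 (-1.43). *COX17*, a copper chaperone, had 576 FPKM in N9 against 57.9 in N1 and 99.9 in N3, but at -1.51 (SE 0.77) on the log2 scale it did not pass.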

How the data were processed

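RNAseq of 4 non-tumor and 3 OSA tumor samples was analysed. The authors prepared stranded TruSeq libraries, used Trim Galore for trimming and TopHat2 for alignment to CanFam3.1 (Ensembl iGenomes), and deposited FPKM per gene and sample from Cufflinks/Cuffdiff; versions, strand setting and scaling between libraries are not given in the sources used here. A second deposited table served for gene intervals alone (1 added to starts); its group FPKM, fold changes, statistics, p-values and q-values were not used. All 7 FPKM columns were used and 0 left out.

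The genes whose mean reached 1 FPKM were tested on log2(FPKM + 1) with limma 3.58.1 (R 4.3.3; moderated, with a mean-variance trend). A fold change of 2 on this scale understates changes of low genes. A gene passed where its log2 fold change was 1 or more in size and its unadjusted p under 0.05. Exact permutation tests (two-sided, 2 times the smaller tail of 35 splits; smallest p 0.0571, so 0.05 cannot be reached) used Python 3.11.15. The labels do not say that the samples come from separate dogs, so p-values measure the spread between these samples. The script was tested on simulated data (10 draws, 200 genes changed in each). The table holds no counts; relative depth was read from the commonest step between FPKM values under 0.3.

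Members, lists and tests were chosen with earlier results of these data known. Named genes are the 9 enzymes, *AHSP*, *KLF1*, *SLC4A1*, *ACTA1*, list genes past the threshold, *ALAS2*, *NFE2L1*, *HMOX1*, *BLVRA*, *BLVRB* and the 2 nearest genes of each enzyme; *COX17*, *CUTC*, *B4GALT3*, *ADAMTS4* and *SPP1* were named after their values were seen. Of the marker lists, 10 of 11 erythroid, 9 of 9 muscle, 4 of 4 granulocyte and 3 of 3 adipocyte genes passed the threshold lower in OSA tumor (3.58% of all tested genes did), and 0 of 5 macrophage, 0 of 6 osteoblast and 0 of 5 cell cycle genes passed in either direction (6.86% of all). Not every gene of the pathway is reported here. No sequences were printed. Alternatives were other pseudocounts (0.1, 0.01), filters, scalings, variance models, blocks and covariates, and each sample left out.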

Additional observations from a re-analysis of the deposited data

How the results depend on the processing

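The number of enzymes past the threshold was 5 of 9, and it ran from 1 to 7 with 1 sample left out in turn, over which the number of all genes past the threshold ran from 319 (without N8) to 1997 (without N1) around 926. Without the filter on low values 1 enzyme (*UROS*) and 617 genes passed. With the FPKM rescaled to the same sum 3 enzymes passed (*ALAS1*, *ALAD* and *FECH*), and *UROS* and *PPOX* did not. With quantile normalization 3 passed as well (*ALAS1*, *UROS* and *PPOX*). Sample weights brought 1857 genes and 7 enzymes past the threshold. With the erythroid covariate 0 enzymes and 204 genes passed, the median over the enzymes was -0.45, and *UROD* (0.17), *CPOX* (0.27) and *FECH* (0.012) turned positive. With the *ACTA1* covariate, chosen after seeing the data, 0 enzymes and 239 genes passed, the median was 0.048, and *ALAD* (0.048), *UROD* (0.15), *CPOX* (0.012), *FECH* (0.65), *COX10* (0.92) and *COX15* (0.67) turned positive. The cause of these changes was not tested.

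Samples 1 and 3 exist in both groups, and the labels call the tissue matched, but they do not say that a shared number marks 1 dog. The deviations from the group means correlated at 0.42 between N1 and T1 and at 0.21 between N3 and T3, against -0.27 between N1 and T3 and -0.26 between N3 and T1, across genes, which are not independent. With the number as a fixed replicate block over those 4 samples, 0 enzymes and 241 genes passed, so that *ALAS1*, *ALAD*, *UROS*, *PPOX* and *FECH* all lost their calls, and *COX10* turned positive at 0.17. With it as a random block over all 7 samples, 4 enzymes passed, *ALAD* falling out at -1.94. Of 180 refitted values of single enzymes, 122 kept their call and direction, 43 lost the call, 5 gained it and 10 turned sign. Of 360 recomputed order counts, 348 stayed within the 95% Wilson interval of the reported share. That interval treats the sample pairs as independent, which they are not, because each sample enters several pairs. It was also wide. The share of *COX10* with *ACTA1* counted as within it at 61.9% with the FPKM rescaled to the same sum, against 81.0% as deposited. The number within the interval is therefore no measure of how stable the order counts were. No counts were at hand, so depth is known only relative to N1, and on that footing *KLF1* was equal in N1 and T1.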

Other observations

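Among 9 matched genes of mitochondrial content (of 12 listed), *HSPD1* was listed at 0 in all 7 samples and the other 8 were tested. Of these, 0 passed the threshold in either direction by limma, where 6.86% of all tested genes did, and the median log2 fold change was -0.49. Their summed level was 2433 FPKM in N9, 1299 in N8, 512 in N3 and 416 in N1, against at most 1200 FPKM in a tumor sample, so N9 was highest here as it was for *COX10* and *COX15*. *VDAC1*, a channel of the outer mitochondrial membrane, was at 584 FPKM in N9 and at 37.7 in N1, and *CS*, citrate synthase, at 291 and 23.9 FPKM. *TOMM20* and *HSPA9* were highest in T3, at 368 and 200.4 FPKM against 365 and 195 in N9. These 4 genes were named after their values were seen.

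All 8 listed regulators of *ALAS1* were tested, and 0 passed by limma against 6.86% of all tested genes, with a median log2 fold change of -0.57. *PPARGC1A*, a coactivator that induces *ALAS1* in liver, was at 12.3 FPKM in N9 and 5.10 in N8 and at or under 0.544 in the other 5 samples, while *ALAS1* itself was highest in N3, where *PPARGC1A* was at 0.544 FPKM. The groups did not overlap in 2 of the 8, *FOXO1* and *NCOR1*, where 5.85% of all tested genes did not. *FOXO1* was at 3.08 to 3.87 FPKM in non-tumor and 0.947 to 2.01 FPKM in OSA tumor, and *NCOR1* at 15.7 to 56.1 and 11.2 to 15.2 FPKM. Both missed the threshold, at log2 fold changes of -0.94 (standard error 0.45) and -0.81 (0.53). *PPARGC1A*, *FOXO1* and *NCOR1* were named after their values were seen.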
